A study of Mus musculus with 28 samples.

Results

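The replication-dependent histone genes of the mouse were examined at the level of chromatin. They were taken as every gene of the GENCODE vM1 annotation (mm9) whose symbol begins with Hist1h, Hist2h, Hist3h or Hist4h. This gave 70 genes of the 37273 genes on placed chromosomes, of which 67 were protein-coding and 3 (Hist3h2bb-ps, Hist1h2aj and Hist2h3c2) were annotated as pseudogenes. They comprised 6 linker histone H1 genes, 20 H2A genes, 19 H2B genes, 12 H3 genes and 13 H4 genes. Genes within 200 kb of each other were joined into clusters with 5 kb on either side. On chromosome 13 there was a proximal Hist1 cluster of 24 genes (chr13:21802632-22140545), a distal Hist1 cluster of 31 genes (chr13:23617919-24031720) and the lone gene Hist1h2al (chr13:51293057-51303434). The Hist2 cluster held 10 genes (chr3:96018839-96087924), the Hist3 cluster held 3 genes (chr11:58757413-58775176), and Hist4h4 stood alone (chr6:136747589-136757900).

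Replication-dependent histone genes encode the bulk of the nucleosome's core histones and the linker histones, and are transcribed mainly in S phase, when new DNA must be packaged. They lack introns as a rule, their mRNAs end in a stem-loop in place of a poly(A) tail, and many H2A and H2B genes lie head to head around a shared promoter. Their transcription is organized in the histone locus body, where Npat acts as the coactivator. Embryonic stem cells divide rapidly and spend much of their cycle in S phase.

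ChIP-seq had been done in HATX cells, a haploid line of mouse embryonic stem cells (mESCs) with an inducible Xist transgene and a mixed strain background, grown in serum and LIF on gelatin without feeder cells. WT cells were compared with clone 2 of a Spen knockout (Spen KO), so the knockout is represented by 1 clone. Spen is an RNA-binding corepressor that acts with Xist. Each of 4 antibodies was used on 2 libraries per genotype (16 ChIP and 12 input libraries), giving 10 peak lists: 1 per genotype for H3K4me3 (active promoters), H3K27Ac (active promoters and enhancers) and H3K9me3 (silent chromatin), and 1 per library for the pluripotency factor Oct4. The lists carry no read counts, so depth is unknown, and the libraries are described as technical replicates, so their spread says nothing of the spread between cultures. No test between genotypes was made on the histone mark lists, whose libraries share peak borders and were filtered for agreement. The Spen promoter had H3K4me3 in both genotypes and H3K27Ac in the Spen KO list only, so the lists gave no check of the knockout, and genotypes are named as labelled. Of 8 mESC markers, 7 had H3K4me3 and H3K27Ac at the promoter in both genotypes (Esrrb had neither at its annotated start). Oct4 lay at 2 and 3 of the 8 in the WT libraries and at 4 and 3 in the Spen KO libraries. Pou5f1 alone had it in all 4. Of 5 fibroblast markers, 0 had H3K27Ac in either genotype, while 4 had H3K4me3 in WT and 3 in Spen KO.

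A promoter was the annotated transcription start site (TSS) with 1000 bp on either side, and it was called for a mark when at least 1 bp of a peak lay within it. The annotated TSS is the first coding base in 9 of the 67 coding genes, so the true start may lie upstream there. For 2 genes the coding sequence began outside the promoter window, 1197 bp away at Hist2h3c1 and 35168 bp away at Hist1h2be. The genes resemble each other in sequence, and at 10 genes at least 50% of the 31-base words of the promoter window occur more than once in mm9. Values at these genes may belong to another copy.

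Sequences of promoters shared by head-to-head genes are shown first, since several results turn on them. They run on the plus strand from the base after the left TSS to the base before the right TSS in mm9, and contain no annotated transcript of either gene. Capitals mark the octamer ATGCAAAT, the site of POU factors such as Oct1 (encoded by Pou2f1) and Oct4, the CCAAT box, the site of NF-Y, and the TATA box TATAAA, each on either strand. The first pair of sequences shows a duplicated promoter, and the others show unique promoters with an octamer, at chr13:21902069-21902235, chr13:21925445-21925611, chr13:22127513-22127689, chr13:23663090-23663264, chr13:23775818-23776067 and chr3:96024804-96025043.
Hist1h2bq/Hist1h2ao: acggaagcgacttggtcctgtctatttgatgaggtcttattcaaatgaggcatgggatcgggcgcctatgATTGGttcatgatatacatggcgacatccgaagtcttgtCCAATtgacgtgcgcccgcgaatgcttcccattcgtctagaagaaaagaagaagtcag
Hist1h2ap/Hist1h2br: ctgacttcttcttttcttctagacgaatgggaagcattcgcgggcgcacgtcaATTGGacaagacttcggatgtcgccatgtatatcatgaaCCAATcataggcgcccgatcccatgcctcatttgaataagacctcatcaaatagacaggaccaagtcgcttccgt
Hist1h2ah/Hist1h2bk: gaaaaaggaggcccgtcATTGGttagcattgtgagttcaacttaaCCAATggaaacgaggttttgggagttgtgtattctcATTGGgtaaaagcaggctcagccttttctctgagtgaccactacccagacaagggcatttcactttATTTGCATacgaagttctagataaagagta
Hist1h2ae/Hist1h2bg: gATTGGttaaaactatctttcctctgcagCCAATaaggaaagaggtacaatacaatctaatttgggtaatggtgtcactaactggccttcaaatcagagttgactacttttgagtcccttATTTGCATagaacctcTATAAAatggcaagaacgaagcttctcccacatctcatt
Hist1h2ac/Hist1h2bc: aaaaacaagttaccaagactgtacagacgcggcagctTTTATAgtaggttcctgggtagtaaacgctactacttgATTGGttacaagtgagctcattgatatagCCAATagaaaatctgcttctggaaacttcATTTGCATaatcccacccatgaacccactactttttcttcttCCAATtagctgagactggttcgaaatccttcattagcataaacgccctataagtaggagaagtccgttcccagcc
Hist2h2ac/Hist2h2be: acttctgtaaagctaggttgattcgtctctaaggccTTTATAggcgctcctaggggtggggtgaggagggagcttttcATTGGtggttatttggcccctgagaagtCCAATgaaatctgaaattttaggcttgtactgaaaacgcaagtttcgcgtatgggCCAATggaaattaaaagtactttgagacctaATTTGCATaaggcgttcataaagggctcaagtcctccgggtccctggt
The first and second sequences are the same 167 bases on opposite strands (167 of 167 identical), and neither can be told from the other by a read that lies within them.

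The motifs were then counted in the window from 250 bases before to 50 after the TSS. The octamer was found at 16 of 70 histone genes (22.9%), against 1.73% of 22367 protein-coding promoters, and all 16 were H2A (7 of 20) or H2B genes (9 of 19). The CCAAT box was found at 59 genes (84.3%, against 37.9% of all), including every H1 and H2B gene, 19 of 20 H2A and 11 of 12 H3 genes, but 4 of 13 H4 genes. The TATA box was found at 38 genes (54.3%, against 13.4% of all). AAACACA, the box known from linker histone promoters, was found at 5 of 6 H1 genes and at 5 of the other 64, against 6.42% of all protein-coding promoters. Of 14 head-to-head pairs within 1000 bp, 14 had at least 2 CCAAT boxes between the TSSs, 6 had an octamer and 6 a TATA box. Motifs were not counted between the TSSs of other head-to-head pairs, so these pair counts have no background beside them. Neighbors share sequence in these windows, so the counts are not of independent promoters.

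Nearly every histone promoter carried H3K4me3. In WT, 69 of 70 promoters had a peak, and in Spen KO 68 of 70, beside 45.3% and 43.7% of all genes. With only the stronger 50% of each list, the counts for H3K4me3 were 45 and 28 of 70, beside 38.8% and 36.0% of all genes, and those of H3K27Ac were 55 and 60, beside 9.36% and 9.32%. H3K27Ac was present at 62 promoters in WT and 65 in Spen KO, beside 13.5% and 14.1% of all genes. Among promoters with H3K4me3, H3K27Ac accompanied it at 62 of 69 histone genes in WT and 64 of 68 in Spen KO, beside 28.6% and 31.3% of all genes with H3K4me3. Neighboring genes often share a peak, and a promoter can hold several, so the 69 WT promoters with H3K4me3 met 67 distinct peaks and the 65 Spen KO promoters with H3K27Ac met 57. All 24 genes of the proximal Hist1 cluster and all 10 of the Hist2 cluster had both marks in WT. Of the 12 other protein-coding genes with a TSS in any of the histone clusters, 6 had H3K4me3 and 4 had H3K27Ac in WT. The shares of all protein-coding genes were 63.1% and 18.2%. The 4 with H3K27Ac were Zfp184, Trim17, Gm17658 and H2afj, which is itself a histone gene. Trim17 and Gm17658 start within 1000 bp of a histone TSS (Hist3h2a and Hist1h4d), so their peaks cannot be assigned to either gene. In the distal Hist1 cluster the 5 genes Hfe, Slc17a1, Slc17a2, Slc17a3 and Slc17a4, together with Trim38, had neither mark in either genotype.

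**Figure D1:**
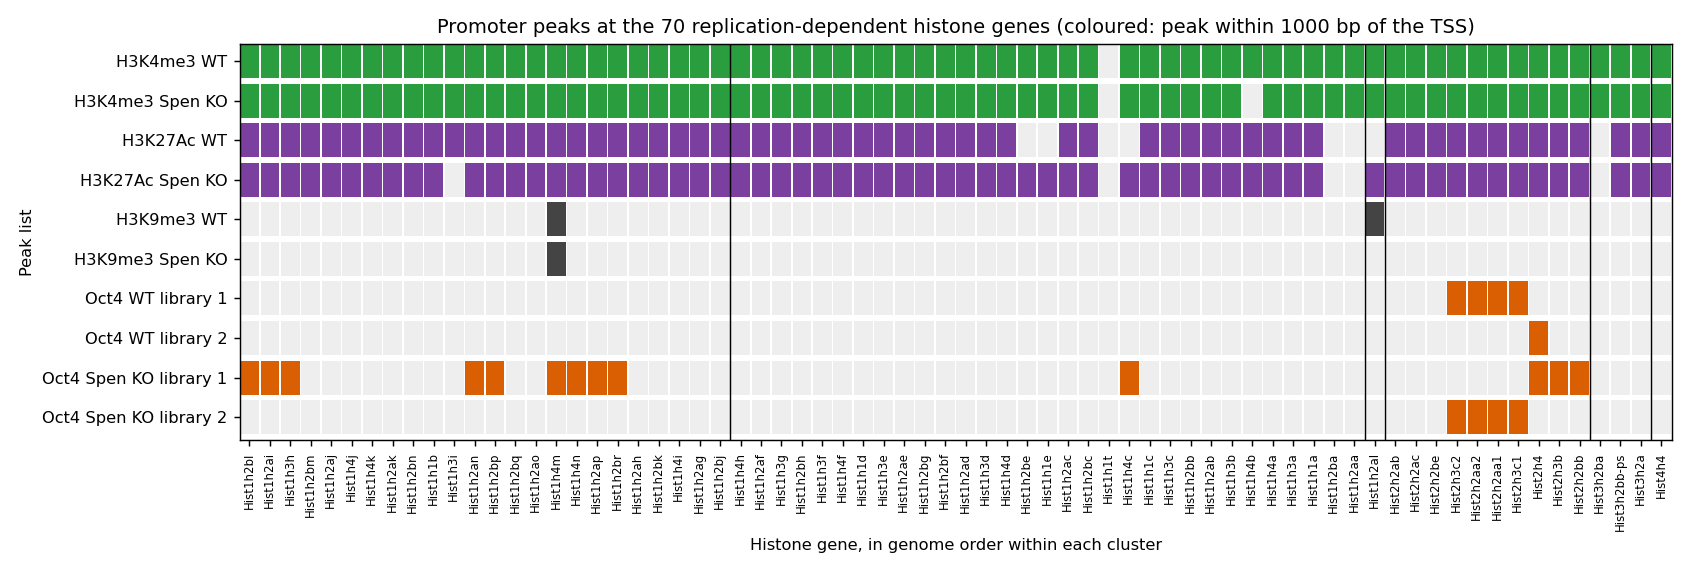
Promoter peaks at the 70 histone genes. Columns are genes in genome order within the proximal Hist1, distal Hist1, Hist1h2al, Hist2, Hist3 and Hist4 groups (separated by lines), rows are the 10 peak lists, and a colored tile marks a peak within 1000 bp of the TSS. H3K4me3 and H3K27Ac fill almost all columns, H3K9me3 marks 2 genes in WT and 1 in Spen KO, and the Oct4 tiles differ between libraries of the same genotype.

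Of the 4 genes without H3K27Ac in both genotypes, 3 are known for expression in the testis. Hist1h1t, the testis-specific H1t, had no H3K4me3, H3K27Ac, H3K9me3 or Oct4 peak at its promoter in any list. The testis H2A and H2B pair Hist1h2aa and Hist1h2ba had no H3K27Ac in either genotype, and had the weakest H3K4me3 of their classes. The H3K4me3 score percentile of the shared peak, the rank of the library's score within its own list from 0 to 100, was 13.6 and 34.4 in the WT libraries, against 6.30 and 8.26 in the Spen KO libraries. The fourth gene without H3K27Ac in both genotypes was Hist3h2ba, an H2B gene of the Hist3 cluster, whose H3K4me3 percentiles were 63.0 and 70.2 in WT, against 37.4 and 65.0 in Spen KO.

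Promoters of an H1 gene with both marks (Hist1h1d, chr13:23646651-23646900) and of the unmarked H1t gene (chr13:23787430-23787679) are shown for comparison, as the 250 bases before the TSS on the plus strand, which is the strand of both genes. Capitals mark the motifs above and AAACACA.
Hist1h1d: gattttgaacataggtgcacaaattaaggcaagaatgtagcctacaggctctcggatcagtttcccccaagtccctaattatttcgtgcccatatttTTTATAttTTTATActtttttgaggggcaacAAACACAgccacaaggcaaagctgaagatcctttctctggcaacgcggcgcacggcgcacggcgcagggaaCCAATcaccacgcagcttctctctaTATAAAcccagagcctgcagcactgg
Hist1h1t: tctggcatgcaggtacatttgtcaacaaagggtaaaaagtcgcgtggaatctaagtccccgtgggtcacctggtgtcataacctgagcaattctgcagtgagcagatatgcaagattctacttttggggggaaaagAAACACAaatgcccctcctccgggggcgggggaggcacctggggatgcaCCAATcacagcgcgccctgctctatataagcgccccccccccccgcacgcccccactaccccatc
Both hold AAACACA and a CCAAT box, and only Hist1h1d of these holds TATAAA, so the presence of the H1 box in the window did not separate the marked from the unmarked gene.

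H3K4me3 at histone promoters ranked near the middle of its lists, below the median of other promoters with the mark, while H3K27Ac ranked above that median. Over the 68 histone genes with H3K4me3 in both genotypes, the median percentile was 54.8 in WT and 48.6 in Spen KO, beside 77.6 and 74.7 over the 16071 genes with H3K4me3 in both. Over the 61 with H3K27Ac in both, it was 74.6 in WT and 81.5 in Spen KO, beside 69.4 and 70.1 over 4184 genes. By class, the WT medians for H3K4me3 ran from 52.4 for H3 to 60.8 for H2A, and for H3K27Ac from 70.4 for H1 to 81.5 for H4. Median peak width at histone promoters was 1184 bp for WT H3K4me3, beside 1458 bp over the whole list, and 1317 bp beside 1152 bp for WT H3K27Ac.

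Within each class the H3K4me3 percentile, averaged over the 4 libraries, spanned a wide range. It ran from 28.9 at Hist1h1a to 62.9 at Hist1h1b among the H1 genes, and from 15.6 at Hist1h2aa to 73.5 at Hist2h2aa2 among the H2A genes. The H2B genes ran from 15.6 at Hist1h2ba to 69.4 at the pseudogene Hist3h2bb-ps, which shares its peak with Hist3h2a. The H3 genes ran from 32.8 at Hist1h3e to 73.5 at Hist2h3c2, and the H4 genes from 19.5 at Hist1h4c to 70.4 at Hist4h4. The highest H2A and H3 values came from the same peak in the Hist2 cluster, in sequence of which 53.1% (Hist2h2aa2) and 74.7% (Hist2h3c2) of 75-base words in the promoter window are multi-copy.

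H3K4me3 or H3K27Ac peaks were split around the start site at 44 histone genes in at least 1 list, and at 13 in all 4 lists of these marks. Any peak within 1000 bp on each side counted, so a flanking peak can belong to a neighboring histone gene. At Hist1h4m, for example, the left WT H3K4me3 peak (chr13:21902316-21903468) lies over Hist1h2ao. In WT, the H3K4me3 peaks left the TSS base uncovered, with a peak on both sides of it, at 22 of 69 histone genes (31.9%), beside 0.768% of 14055 other protein-coding genes with a promoter peak. Of these 22 genes, 12 were in a head-to-head pair. Without the 10 genes in multi-copy sequence, the WT count was 14. In Spen KO the H3K4me3 peaks were split at 30 of 68 genes (44.1%, beside 1.18%). For H3K27Ac it was so at 30 of 62 in WT (48.4%, beside 6.67%) and 26 of 65 in Spen KO (40.0%, beside 4.95%). The other protein-coding genes were not matched to the histone genes for distance to a neighboring gene. The stretch without a peak lay just upstream of the TSS. At 100 bp upstream, 46.4% of histone genes had the base inside an H3K4me3 peak in WT, against 90.5% of the other genes, while at 300 bp downstream the shares were 97.1% and 96.5%. For WT H3K27Ac the shares at 100 bp upstream were 29.0% and 44.9%, and at 500 bp upstream 85.5% and 44.8%. In Spen KO the H3K27Ac shares at 100 bp upstream were close, at 44.6% and 47.8%.

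**Figure D2:**
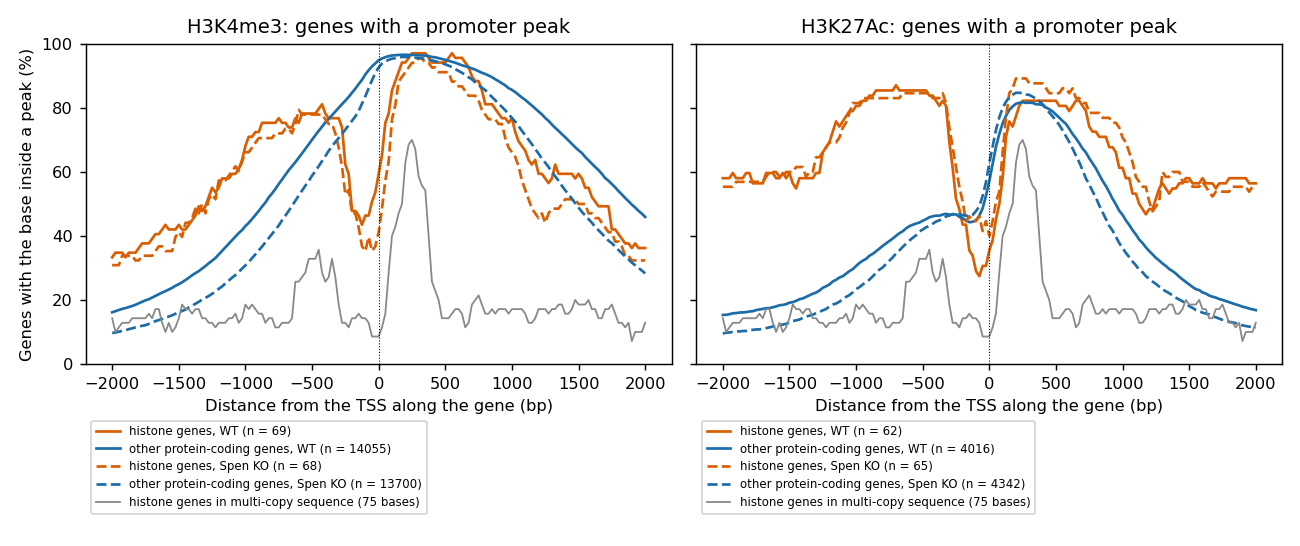
Share of genes with the base inside a peak (y axis, %) by distance from the TSS along the gene (x axis, bp), for H3K4me3 (left) and H3K27Ac (right). Orange lines are histone genes and blue lines other protein-coding genes with a promoter peak (solid, WT; dashed, Spen KO), and the gray line is the share of histone genes whose base lies in a 75-base word found more than once in mm9. The histone genes dip upstream of the TSS, where the gray line is low (14.3% at 100 bp upstream), and are covered where it is high (62.9% at 200 bp downstream). They are also covered where it is low. At 600 bp downstream it is 17.1%, and 95.7% of histone genes have the base inside a WT H3K4me3 peak. A link between both was not tested.

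At head-to-head pairs the split was measured at the midpoint between the TSSs. In WT the midpoint between the TSSs lay outside H3K4me3 peaks and between 2 of them in 10 of 14 histone pairs, beside 2.80% of 751 head-to-head pairs of other protein-coding genes with a peak. In Spen KO this was so in 11 of 14 pairs, beside 4.69% of 746. For H3K27Ac it was 8 of 13 pairs in WT, beside 11.0% of 319, and 7 of 13 in Spen KO, beside 9.78% of 358. The stretch between the H3K4me3 peaks was 108 to 480 bp long in WT (median 243.5 bp). At Hist1h2ah/Hist1h2bk, for example, whose TSSs are 177 bp apart, the peaks left 233 bp in WT, against 367 bp in Spen KO for H3K4me3, and 211 bp and 406 bp for H3K27Ac. In 12 of the 14 pairs none of the 75-base words between the TSSs is multi-copy. The exceptions were the duplicated promoters printed above, at which the H3K4me3 peaks left 282 and 323 bp in WT. H3K4me3 percentiles were lower at histone genes than over all genes, as given above, and the part of this in the split was not tested.

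Between genotypes, promoter state differed at 1 histone gene for H3K4me3, 5 for H3K27Ac and 1 for H3K9me3. The shares of all genes given beside these include unmarked genes, as 20194 of 37273 had H3K4me3 in neither list, against 1 of 70 histone genes. H3K4me3 was in WT only at Hist1h4b, an H4 gene (1 of 70, beside 2.15% of all genes), and in Spen KO only at 0 of 70 (beside 0.555%). The WT peak at chr13:23848972-23849365 had percentiles of 22.9 and 37.6. It lay over the gene body, and 46.6% of its 75-base words are multi-copy. H3K27Ac was present in both genotypes. In WT its peaks lay outside the gene on either side, and in Spen KO the downstream peak began inside the gene. The 250 bases before the Hist1h4b TSS (chr13:23848556-23848805, plus strand) are shown because this promoter differs from those printed above.
Hist1h4b: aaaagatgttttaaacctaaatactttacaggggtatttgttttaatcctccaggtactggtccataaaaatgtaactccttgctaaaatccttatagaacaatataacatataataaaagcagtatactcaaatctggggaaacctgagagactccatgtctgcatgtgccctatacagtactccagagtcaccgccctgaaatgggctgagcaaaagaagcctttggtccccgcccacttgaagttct
It holds none of the octamer, CCAAT box and TATA box letters. The same held for the motif windows of other H4 genes, Hist1h4f, Hist1h4h and Hist4h4, which had H3K4me3 in both genotypes. The lack of these motifs is thus not particular to Hist1h4b.

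H3K27Ac was in WT only at 1 of 70 genes (beside 2.23% of all genes) and in Spen KO only at 4 (beside 2.91%). These shares include unmarked genes, since 31173 of 37273 genes had H3K27Ac in neither list, against 4 of 70 histone genes. It was in both lists at 61 histone genes. Of all genes, 4184 had it in both lists, 832 in WT only and 1084 in Spen KO only. Among genes with the mark, histone genes thus differed in state less often than all genes. The WT-only gene was Hist1h3i, an H3 gene whose WT percentiles of 28.1 and 81.4 were far apart. The Spen KO-only genes were Hist1h1e, Hist1h2be, Hist1h4c and Hist1h2al. Hist1h1e, a main somatic H1, and Hist1h2be shared a peak with Spen KO percentiles of 52.0 and 55.0. At the coding start of Hist1h2be, 35168 bp from that TSS, H3K27Ac was present in both genotypes. At Hist1h4c the Spen KO percentiles were 15.5 and 16.5.

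Hist1h2al, the H2A gene that lies apart from the clusters, was the only histone gene whose state differed in more than 1 mark. H3K9me3 was in WT only at 1 of 70 genes (beside 2.43% of all genes), at Hist1h2al, and in Spen KO only at 0 (beside 2.71%). In WT, domains at chr13:51293601-51297600 and chr13:51298801-51302800, with scores of 123 and 185, lay on either side of the gene and covered 77.1% of the interval with 5 kb around it. In Spen KO the list held a single domain there, at chr13:51299601-51302600, which lay 1167 bp from the TSS and covered 28.9%. H3K4me3 was present in both, with percentiles of 48.0 and 57.3 in the WT libraries, against 65.0 and 78.3 in the Spen KO libraries, which do not overlap. H3K27Ac was in the Spen KO list only, with percentiles of 79.0 and 87.0. No Oct4 peak lay at the promoter in any library. At 31 bases, 42.4% of the words of this promoter window are multi-copy, and at 75 bases 23.9%. With a promoter window of 2000 bp Hist1h2al has H3K9me3 in both.

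H3K9me3 was called at few histone promoters. It was found at 2 of 70 in WT (beside 11.7% of all genes) and 1 of 70 in Spen KO (beside 12.0%). The gene with H3K9me3 in both genotypes was Hist1h4m, an H4 gene of the proximal Hist1 cluster, at which a domain began 786 bp from the TSS at position 21904401 of chromosome 13, with score percentiles of 94.6 in WT and 97.5 in Spen KO. In its promoter window 89.0% of 75-base words are multi-copy, and its counterpart in the duplication, Hist1h4n, lay 12465 bp from the nearest domain in WT and 12065 bp from it in Spen KO. The median distance from a histone TSS to the nearest domain was 33.5 kb in WT and 21.9 kb in Spen KO. The WT list holds 53745 domains and the Spen KO list 70268, and neighboring histone genes often have the same nearest domain. The distance was not computed over all genes, so the medians do not show a difference particular to histone genes.

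The Hist1 clusters lay on either side of a region rich in H3K9me3. H3K9me3 domains covered 5.62% of the proximal Hist1 cluster in WT and 4.85% in Spen KO, and 7.11% and 6.77% of the distal cluster. The 1477 kb between these clusters, with 94 genes, of which 36 have Vmn1r symbols (vomeronasal receptors), was covered to 39.5% in WT and 40.4% in Spen KO. Over all placed chromosomes the share was 14.9% and 14.0%. H3K27Ac ran the other way, covering 13.9% and 11.6% of the proximal cluster, 15.03% and 17.6% of the distal cluster and 0.136% and 0.141% of the interval between them. H3K4me3 covered 26.28% and 17.91% of the proximal cluster and 11.17% and 10.06% of the distal cluster. It covered 5.483% and 3.21% of the interval, above the 2.425% and 1.892% over all placed chromosomes. The Hist2 and Hist3 clusters held no H3K9me3 domain in either list. At Hist4h4 a domain of 2800 bp ended 1900 bp from the TSS in both genotypes.

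**Figure D3:**
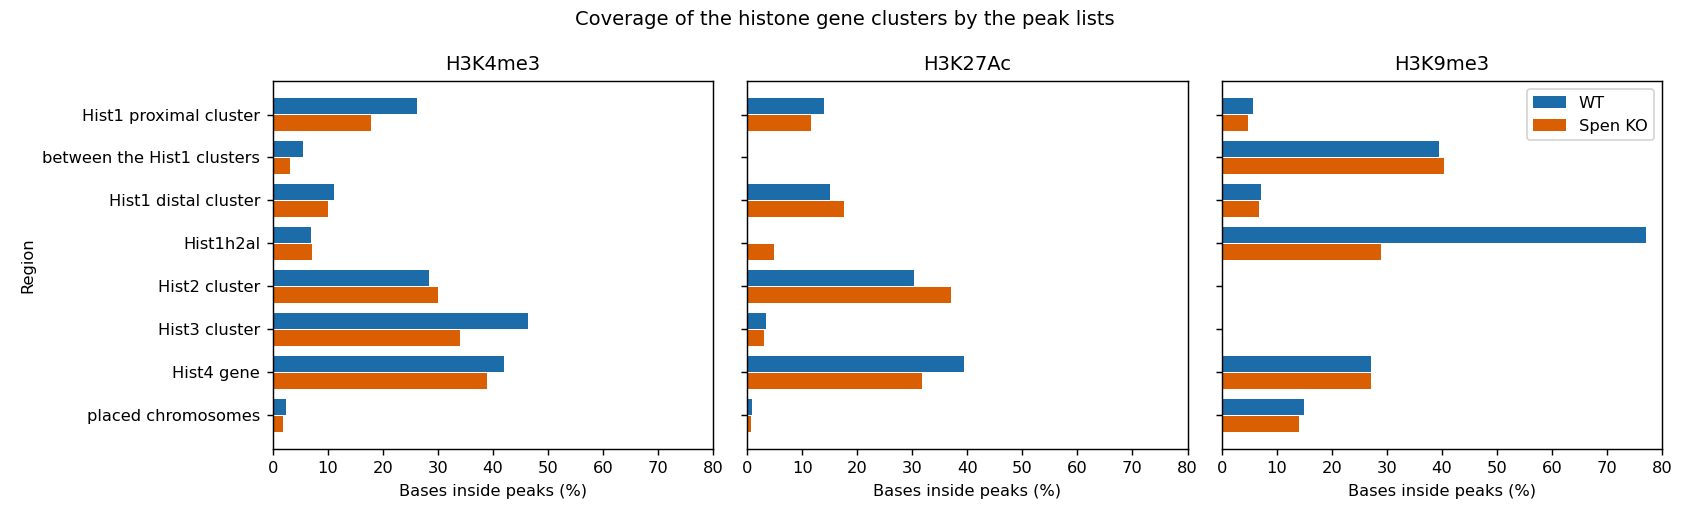
Share of bases inside peaks (x axis, %) in each histone cluster, in the interval between the Hist1 clusters and over all placed chromosomes, for H3K4me3, H3K27Ac and H3K9me3 (blue, WT; orange, Spen KO). The interval between the Hist1 clusters is high in H3K9me3 (39.5% in WT) and nearly empty of H3K27Ac, and the Hist1h2al interval differs most between genotypes in H3K9me3 (77.1% and 28.9%).

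Score percentiles were then compared between genotypes. The WT and Spen KO lists differ in length (34823 and 31091 peaks for H3K4me3, 13922 and 11932 for H3K27Ac), so a percentile can differ between them with no difference in signal. For H3K4me3, both Spen KO libraries lay below both WT libraries at 22 of 68 genes (32.4%, beside 27.9% of all genes with peaks in both), and above them at 4 (5.88%, beside 13.7%). For H3K27Ac, both Spen KO libraries lay above both WT libraries at 23 of 61 genes (37.7%, beside 19.1%), and below them at 9 (14.8%, beside 24.0%). The median difference, Spen KO minus WT, was -9.51 percentile points for H3K4me3, beside -3.24 over all genes, and 5.21 for H3K27Ac, beside -0.93. Genes share peaks, and with each pair of peaks counted once, H3K4me3 was lower in 12 and higher in 3 of 44, and H3K27Ac was higher in 12 and lower in 6 of 36. Pairs of peaks were not counted over all genes, so only the shares by gene given above stand beside these counts. Counted by pair, lower H3K4me3 (12 of 44) was near the 27.9% of all genes. In lists shortened to equal length, an alternative chosen after seeing the data, H3K4me3 was lower at 17 of 68 (beside 22.3% of all genes) and higher at 7 (beside 17.4%), with a median difference of -4.64 beside -0.72. There H3K27Ac was higher at 23 of 59 (39.0%, beside 25.2%) and lower at 5 (beside 18.7%), with a median difference of 8.35 beside 2.41. Ranked by the widest peak at each promoter in the whole lists, H3K4me3 was lower at 29 genes (42.6%, beside 28.4%) and higher at 8 (beside 13.9%). By that ranking H3K27Ac was higher at 16 of 61 genes (26.2%, beside 19.6%) and lower at 14 (23.0%, beside 24.0%), so its excess of higher genes depended on the peak chosen. No test between genotypes was made on these scores.

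**Figure D4:**
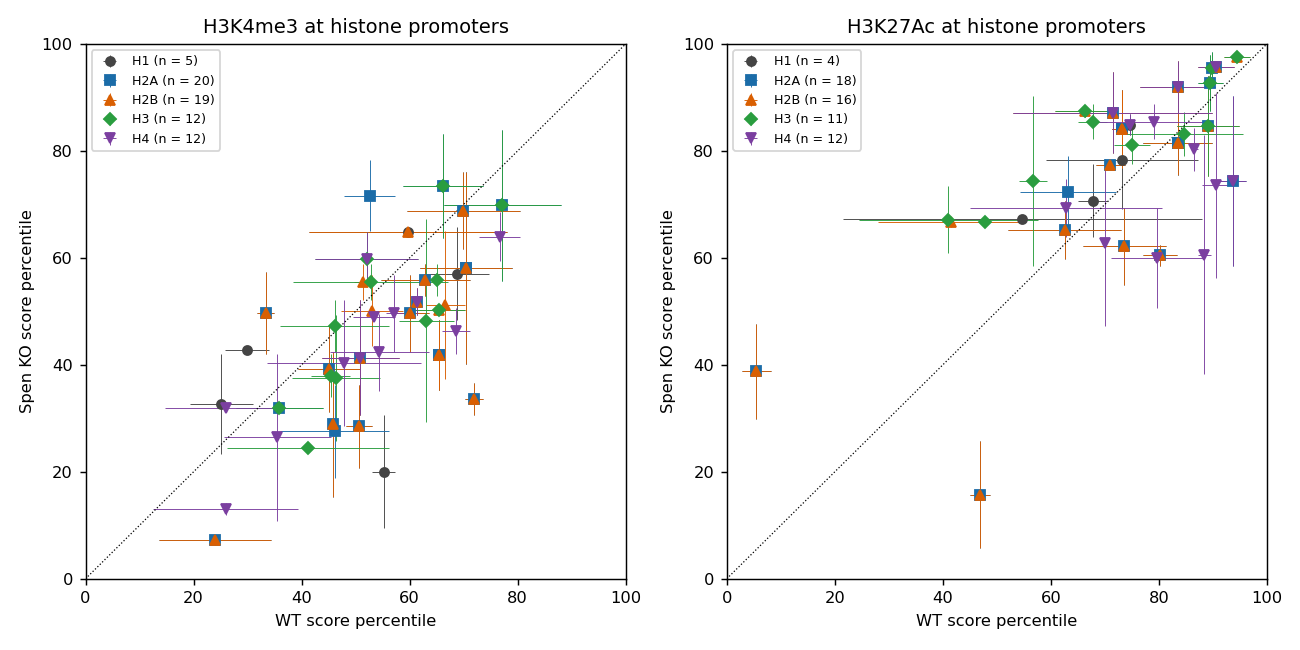
Score percentile of the promoter peak in WT (x axis) and Spen KO (y axis) for H3K4me3 (left) and H3K27Ac (right). Points are histone genes with a peak in both genotypes, by class, at the mean of both libraries, with bars to the lower and the higher library, and the dotted line marks equal percentiles. For H3K4me3, 22 of 68 points lie below the line without overlap of the bars (32.4%, near the 27.9% of all genes). Above it lie 4 (5.88%, beside 13.7%). For H3K27Ac, 23 of 61 lie above it (37.7%, beside 19.1%) and 9 below (14.8%, beside 24.0%). Ranked by the widest peak, H3K27Ac was higher in Spen KO at 16 genes and lower at 14.

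At Hist1h2ah/Hist1h2bk, the H2A and H2B genes whose shared promoter is printed above, H3K4me3 percentiles were 70.2 and 73.6 in WT, against 30.6 and 36.5 in Spen KO. Those of H3K27Ac were 68.3 and 73.7 in WT, against 77.2 and 77.5 in Spen KO. Here the libraries of the genotypes did not overlap for either mark, in opposite directions. At Hist1h1c, another somatic H1 gene, H3K4me3 percentiles were 53.0 and 57.3 in WT, against 9.41 and 30.6 in Spen KO, while those of H3K27Ac (59.1 and 87.2, then 69.2 and 87.6) overlapped. The H3K4me3 percentiles of Hist1h2ac/Hist1h2bc were 48.2 and 53.0 in WT, against 20.7 and 36.3 in Spen KO, and those of H3K27Ac were 2.84 and 8.12, against 29.9 and 47.7.

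Genes outside the Hist1 clusters varied among themselves. Hist4h4, an H4 gene, was lower in Spen KO for both marks, with H3K4me3 percentiles of 72.9 and 80.5 in WT, against 59.4 and 68.6 in Spen KO, and H3K27Ac percentiles of 87.2 and 89.7 and of 38.3 and 83.0. Hist3h2a, an H2A gene, shared its peaks with Hist3h2bb-ps. Its H3K4me3 percentiles overlapped between genotypes (59.4 and 80.4, then 61.6 and 76.0), while those of H3K27Ac were 45.1 and 48.7 in WT, against 5.67 and 25.7 in Spen KO. The TSS of Trim17 is annotated at the same base as that of Hist3h2a, so the peaks cannot be assigned to either gene.

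In the Hist2 cluster, Hist2h2ab, Hist2h2ac and Hist2h2be shared their highest peaks. Their H3K4me3 percentiles were 61.95 and 78.9 in WT, against 40.3 and 76.0 in Spen KO, and their H3K27Ac percentiles 77.1 and 89.9 and then 75.5 and 87.6, with overlap in both marks. The inverted repeat with Hist2h3c2 and Hist2h2aa2 on one side had H3K27Ac percentiles of 88.7 and 91.1 in WT, against 92.7 and 98.4 in Spen KO. Hist2h2aa1 and Hist2h3c1 on its other side had 87.2 and 91.8, then 87.6 and 97.9. At Hist2h3b and Hist2h2bb the libraries again did not overlap, in opposite directions, with H3K4me3 at 60.7 and 70.2 in WT, against 49.3 and 51.3 in Spen KO, and H3K27Ac at 60.8 and 71.8 and then 86.3 and 88.7. Hist2h4 overlapped between genotypes for both marks (H3K4me3 33.7 and 62.2, then 28.6 and 52.1).

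Oct4 peaks at histone promoters did not repeat between libraries of a genotype. Of 70 promoters, the first and second WT libraries had a peak at 4 and 1, and the Spen KO libraries at 13 and 4. Over all genes the shares were 4.26%, 2.28%, 1.96% and 1.79%. The mean was 2.50 ± 2.12 promoters in WT and 8.50 ± 6.36 in Spen KO (SD, n = 2 libraries each), a difference of 6.0 that was not significant (exact permutation test, two-sided, p = 0.667, where the smallest p possible is 0.3333). The difference rested on Spen KO replicate 1 and was 1.5 without that library, and 10.5 without Spen KO replicate 2. The 13 promoters of that library rested on 7 peaks, and the other libraries had 2, 1 and 2 peaks.

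No histone promoter had Oct4 in more than 2 libraries. Hist2h3c2, Hist2h2aa2, Hist2h2aa1 and Hist2h3c1 had it in WT replicate 1 and Spen KO replicate 2, with a fold enrichment of 6.74 at both WT peaks and of 7.20 and 6.13 at the Spen KO peaks, but at positions that do not overlap. These peaks lie in the inverted repeat, and 89.4% to 100% of their 75-base words are multi-copy. Hist2h4 had it in WT replicate 2 (6.34-fold, within the gene) and Spen KO replicate 1 (6.86-fold, at the TSS), in unique sequence. In the proximal Hist1 cluster, 9 promoters had Oct4 in Spen KO replicate 1 and 0 in the other libraries. Of the 7 peaks of that library, 4 lie wholly in multi-copy sequence and 5 have their midpoint over the body of a histone gene other than Hist2h4. Of the 12 Oct4 peaks at histone promoters 0 hold an octamer, beside 3.27% to 7.38% of peaks in the 4 lists, so the count is near that of the lists. Of the 16 genes with an octamer near the TSS, Hist2h2bb had an Oct4 peak, in Spen KO replicate 1 (5.65-fold), and the other 15, the printed pairs among them, had none. That peak lies within Hist2h3b, 350 bp from the Hist2h3b TSS and outside the Hist2h2bb window searched for the octamer. All of its 75-base words are multi-copy.

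Some peaks lie wholly in sequence with several copies. The promoter windows of Hist1h2bq, Hist1h2ao, Hist1h2ap and Hist1h2br consist entirely of 75-base words with more than 1 copy in mm9, yet these genes had H3K4me3 and H3K27Ac in both genotypes. In the clusters, 4 H3K4me3 peaks per genotype and 3 H3K27Ac peaks per genotype lay wholly in such sequence, for example WT H3K4me3 at chr13:21900442-21902033. The methods state that unique pairs were kept, and describe a further alignment in which multiply mapped reads were placed at random. Which of these gave the lists is not stated, and at these 4 genes the values cannot be assigned to a copy.

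Other genes of the pathway and histone genes used outside S phase were then listed. Of all protein-coding genes, 63.1% in WT and 61.5% in Spen KO had H3K4me3, and 18.2% and 19.7% had H3K27Ac. Of 20 pathway genes, 18 had H3K4me3 in both genotypes, and 11 had H3K27Ac in WT and 14 in Spen KO. Npat, Slbp, which binds the stem-loop, Cdk2, and the cyclins Ccne1 and Ccne2 had both marks in both genotypes. Casp8ap2 and Eri1, which act in the processing or turnover of histone mRNA, and Cstf2 had H3K27Ac in Spen KO only. Over all genes, 1084 had H3K27Ac in Spen KO only, beside 4184 with it in both genotypes. Lsm10 and Lsm11, of the U7 particle that cleaves histone pre-mRNA, had H3K4me3 alone. Zfp473 and Nfyc had neither mark at the annotated start. Pou2f1, which encodes Oct1, had Oct4 in 3 of 4 libraries (not WT replicate 1). Of 15 replication-independent histone genes, 10 had H3K4me3 in both genotypes, and 7 had H3K27Ac in WT and 8 in Spen KO. H2afz, H2afx, H3f3a and Cenpa had both marks in both, and H3f3b had none at its annotated start. H2afb1 and H1fnt, both known from the testis, had H3K9me3 in both genotypes and no active mark. Hils1 and H1foo had none of these marks in either genotype, like the testis gene Hist1h1t.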

How the data were processed

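ChIP-seq peak lists of 28 samples (16 ChIP and 12 input libraries) were analyzed, grouped by the sample labels. According to their methods and processing notes, reads were aligned by the authors to mm9 (Bowtie2), duplicates were dropped (Picard), and MACS2 was run with input as background. For H3K4me3 and H3K27Ac, the deposited lists hold 2 library scores and the irreproducible discovery rate per peak, filtered by the authors. Which replicate each score belongs to, and its scale, is not stated, so scores were used as percentiles within a list. For H3K9me3, the deposited lists give a score and a p-value per domain of joined windows, and how these were called or pooled is not given in the sources used here. For Oct4, the deposited lists give a fold enrichment (ratio) and a −log10 q-value per library. The authors compared genotypes with DESeq2 on read counts, which were not used here, and depth is unknown. The filter on reproducibility removes peaks that differ between libraries, and a peak missing from a list may lie just below the threshold.

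Peaks were intersected with the GENCODE vM1 genes on placed chromosomes of mm9 (NCBIM37) in Python 3.11.15 (numpy 2.4.6, pandas 2.3.3, numba 0.67.0, with figures by matplotlib 3.10.9). A promoter was the TSS with 1000 bp on either side, and overlap needed 1 bp. If several peaks lay at a promoter, the highest-scoring one was used. Copies of every 31-base and 75-base word of the clusters were counted over both strands of mm9. Motifs were searched on both strands from 250 bases before to 50 after the TSS. Overlap, word counts and motif search were tested on simulated data. The Oct4 counts were compared by an exact permutation test over the libraries. Same-numbered libraries share only a number, and no pairing is stated. Alternatives were windows of 500 and 2000 bp, the stronger 50% of lists, equal list lengths, 200 bp overlap, protein-coding genes only, no multi-copy genes, the widest peak, score ranks in equal lists, a replicate block and leaving out each Oct4 library.

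Named genes were those outside the Hist1 clusters, those whose H3K4me3 or H3K9me3 state differed between genotypes, those without H3K4me3, those with Oct4 in most libraries, and the ends of each class. H3K27Ac states and the genes named for split peaks or opposite percentiles were chosen after their values were seen. The histone genes and the lists of other genes were chosen with earlier results of these data known.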

Additional observations from a re-analysis of the deposited data

How the results depend on the processing

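Of 70 recomputed values, 12 counts of genes moved by more than 1.5 times, and the Oct4 difference is given separately. With the stronger 50% of each list, H3K4me3 was called at 45 histone promoters in WT and 28 in Spen KO. For H3K9me3, the WT count was 1 with a window of 500 bp and 1 without multi-copy genes, and the Spen KO count was 0, 3 and 0 with windows of 500 and 2000 bp and without multi-copy genes. Ranked by the widest peak, H3K4me3 was higher in Spen KO at 8 genes and H3K27Ac lower at 14, and in lists of equal length (chosen after seeing the data) at 7 and 5. Without multi-copy genes, chosen after seeing the data, 14 genes had WT H3K4me3 peaks on both sides of the TSS. The cause of these changes was not tested. The Oct4 difference ranged from 1.5 to 10.5 promoters when each library was left out. With a replicate block it was 6.0 (9 and 3 by number), with p = 0.5 in the exact sign-flip permutation test, the smallest possible. It was 3.0 with a window of 500 bp, 1.5 with the stronger 50% of lists, 3.5 with lists of equal length, 4.0 without multi-copy genes and 2.0 at 200 bp overlap. No other paired analysis was possible because which score of the histone mark lists belongs to which replicate is not stated. Depth is unknown, so absence from a list is not absence of a mark.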
